A study of Mus musculus with 2 samples.

Results

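The genes followed here encode the respiratory chain and ATP synthase of mitochondria, 61 of the 31053 gene rows measured in islet cells. They comprise 48 rows for 47 nuclear symbols and the 13 protein genes of the mitochondrial genome. They were listed by name, with earlier results of these data known. Of the nuclear symbols, 14 belong to complex I, 4 to complex II, 5 to complex III, 11 to complex IV, 1 is cytochrome c (Cycs) and 12 belong to complex V. Ndufa4, which was named as a complex I subunit, is placed with complex IV, where it is now counted. Atp5o has 2 rows: ENSMUSG00000022956 held all of its UMIs (unique molecular identifiers, which count captured transcripts) and ENSMUSG00000116933 held 0, so that 47 nuclear rows could be measured.

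The cells came from pancreatic islets of C57BL/6J mice aged 13 weeks, with no other allele or agent in the labels. A droplet 3' library labelled CD, an abbreviation left unexplained in the labels, was set against a library labelled HFD, from mice given a high-fat diet as a model of prediabetes. Islets were freed with collagenase, picked by hand and dispersed to single cells. With 1 library per diet, and the number of mice behind each not known from the labels, diet cannot be told apart from library, and no test between diets was made. Intervals on ratios between diets are 95% intervals for counting error only.

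In the respiratory chain, complexes I and II pass electrons from NADH and succinate to ubiquinone, complex III passes them on to cytochrome c, and complex IV to oxygen. The proton gradient built by complexes I, III and IV drives ATP synthesis by complex V, and in the beta cell the resulting rise of ATP over ADP closes the potassium channels that gate insulin release. Every complex except complex II combines subunits made from mitochondrial genes with subunits made from nuclear genes and imported. Nuclear subunit genes share regulators such as NRF1, the ETS family factor GABP and the estrogen-related receptors, which act with the coactivator PGC-1 alpha.

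Promoters (250 bases before to 50 after the start, GRCm38.p6, from RefSeq) were found for 38 of the 47 nuclear symbols, and not for Atp5a1, Cox4i1, Cox6c, Ndufa2, Ndufb9, Sdhc, Uqcrb, Uqcrc2 and Uqcrq. Both strands were searched for letters of known regulator sites. The NRF1 core GCGCANGCG was present in 16 of the 38 promoters, 42.1%, against 7.03% of the 27025 genes in the table. The ETS core CCGGAAG was present in 13, 34.2%, against 9.93% of all genes, and the ERR site AAGGTCA in 8, 21.1%, against 5.38%. The YY1 core AAGATGGCG was present in 2, Atp5j and Ndufs6, against 1.64% of all genes. In all, 25 of the 38 held at least 1 of these matches, which describe letters and not binding. Matches on the 2 strands of a near-palindrome can overlap, and a promoter was counted once per motif.

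The promoters of 4 members whose values frame the results are printed with matched letters in capitals. Atp5k, above its CD level in all 7 classes of cells, holds an NRF1, an ETS and an ERR match. Cycs, with a ratio near 1 in beta cells and lower ones in the other endocrine classes, holds an NRF1 match. Ndufv2 and Ndufb8, with the lowest HFD to CD ratios in beta cells, hold none of the 4 motifs. Ndufb4, also among the lowest in HFD beta cells, holds an NRF1 and an ERR match, and Ndufa1, higher in HFD beta cells, holds none. Whether matches go with direction over all promoters found was not tested.
Atp5k, chr5:108434350-108434649, minus strand: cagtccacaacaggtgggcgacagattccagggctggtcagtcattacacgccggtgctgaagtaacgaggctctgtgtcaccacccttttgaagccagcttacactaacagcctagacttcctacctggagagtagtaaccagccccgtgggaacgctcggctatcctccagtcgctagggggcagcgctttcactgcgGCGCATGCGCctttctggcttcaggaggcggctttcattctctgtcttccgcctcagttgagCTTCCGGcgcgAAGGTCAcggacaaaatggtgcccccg
Cycs, chr6:50566520-50566819, minus strand: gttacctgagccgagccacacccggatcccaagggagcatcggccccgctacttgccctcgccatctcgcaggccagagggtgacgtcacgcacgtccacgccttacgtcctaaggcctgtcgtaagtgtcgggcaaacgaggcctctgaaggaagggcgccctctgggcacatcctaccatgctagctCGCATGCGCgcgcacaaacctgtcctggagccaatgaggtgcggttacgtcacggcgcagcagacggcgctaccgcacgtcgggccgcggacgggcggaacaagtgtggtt
Ndufv2, chr17:66101510-66101809, minus strand: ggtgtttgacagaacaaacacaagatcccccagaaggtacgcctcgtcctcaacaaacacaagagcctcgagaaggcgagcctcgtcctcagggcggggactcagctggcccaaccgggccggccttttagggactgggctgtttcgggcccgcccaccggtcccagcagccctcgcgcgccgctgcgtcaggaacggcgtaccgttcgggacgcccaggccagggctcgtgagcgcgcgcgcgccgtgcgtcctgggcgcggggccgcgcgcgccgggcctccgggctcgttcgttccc
Ndufb8, chr19:44555393-44555692, minus strand: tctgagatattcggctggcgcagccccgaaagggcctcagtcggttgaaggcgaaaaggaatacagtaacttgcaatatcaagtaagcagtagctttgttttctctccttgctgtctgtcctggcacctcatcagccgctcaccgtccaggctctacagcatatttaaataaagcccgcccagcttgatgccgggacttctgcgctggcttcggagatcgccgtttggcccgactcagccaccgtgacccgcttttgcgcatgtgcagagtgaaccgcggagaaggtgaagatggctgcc

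In total 265836346 UMIs were counted for CD and 271527648 for HFD. Barcodes with at least 1500 UMIs, 500 genes and at most 15% mitochondrial UMIs were kept as cells, 9667 in CD (median 21895 UMIs) and 12062 in HFD (median 17673), with 26 barcodes kept in both against 17.2 expected by chance. Cells were classed by the hormone share of their UMIs: beta with Ins1 and Ins2 at 30% or more, alpha with Gcg at 10%, delta with Sst at 3%, and PP (pancreatic polypeptide) with Ppy at 20%. This gave 6515 CD and 7433 HFD beta cells, 1272 and 2005 alpha cells, 570 and 662 delta cells, and 328 and 535 PP cells. Among cells below every hormone limit, 345 and 541 were endothelial-like, 157 and 219 macrophage-like, and 107 and 184 mesenchymal-like, each with at least 3 markers of its list. Every marker on the list of each of these 7 classes had UMIs in that class in both libraries. Such detection does not tell classes apart, since the lists hold the genes that defined them. Beta cells of both libraries also had UMIs of all 8 endothelial, 9 macrophage and 9 mesenchymal markers. In delta cells delta markers summed to 101168 (CD) and 111884 (HFD) of every 1000000 UMIs. There PP markers summed to 82108 and 81354 and beta markers to 77690 and 69863. Cells past several limits (144 and 143) were set apart. Acinar enzyme markers (9 genes, 6 to 9 of them detected per class) summed to between 32.9 and 206 of every 1000000 UMIs of all genes in the CD classes and between 9.19 and 129 in the HFD classes. Hemoglobin and Alas2 (5 genes, 2 to 5 detected) summed on the same scale to between 1.50 and 2653 in CD and between 14.1 and 7106 in HFD, highest in endothelial-like cells of both. Their part in the results was not tested.

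Mitochondrially encoded transcripts took a larger share of the UMIs of HFD cells than of CD cells in all 7 classes, while the share of nuclear members was lower in HFD in the 4 endocrine classes. Among beta cells the median cell gave 2.70% of its UMIs to mitochondrially encoded genes in CD and 3.78% in HFD. The medians were 2.73% and 4.78% in alpha cells, 3.23% and 5.40% in delta cells, and 1.97% and 3.38% in PP cells. Outside the endocrine classes they were 2.87% and 4.91% in endothelial-like, 2.41% and 4.64% in macrophage-like, and 4.40% and 7.48% in mesenchymal-like cells. In endothelial-like cells, for example, the interquartile range ran from 2.45% to 3.60% in CD and from 4.09% to 6.34% in HFD, so these ranges did not overlap. In beta cells they did, with 2.23% to 3.55% in CD and 3.10% to 4.91% in HFD.

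Nuclear members together made up 2.56% of the nuclear non-hormone UMIs of the median CD beta cell and 2.34% of those of the median HFD beta cell. Hormone transcripts are left out of this denominator because they fill 69.0% of a median CD beta cell but 24.5% of a delta cell. The nuclear share was 1.97% and 1.83% in alpha cells, 2.07% and 1.83% in delta cells, and 2.00% and 1.80% in PP cells. Endothelial-like cells were at 1.29% and 1.23%, macrophage-like cells at 1.10% and 1.12%, and mesenchymal-like cells at 1.48% and 1.60%. Beta cells were thus highest in both libraries and macrophage-like cells lowest. The number of mitochondrially encoded UMIs per nuclear member UMI had medians of 3.75 in CD and 6.05 in HFD beta cells, 2.27 and 4.26 in alpha cells, and 2.19 and 4.38 in delta cells.

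**Figure D1:**
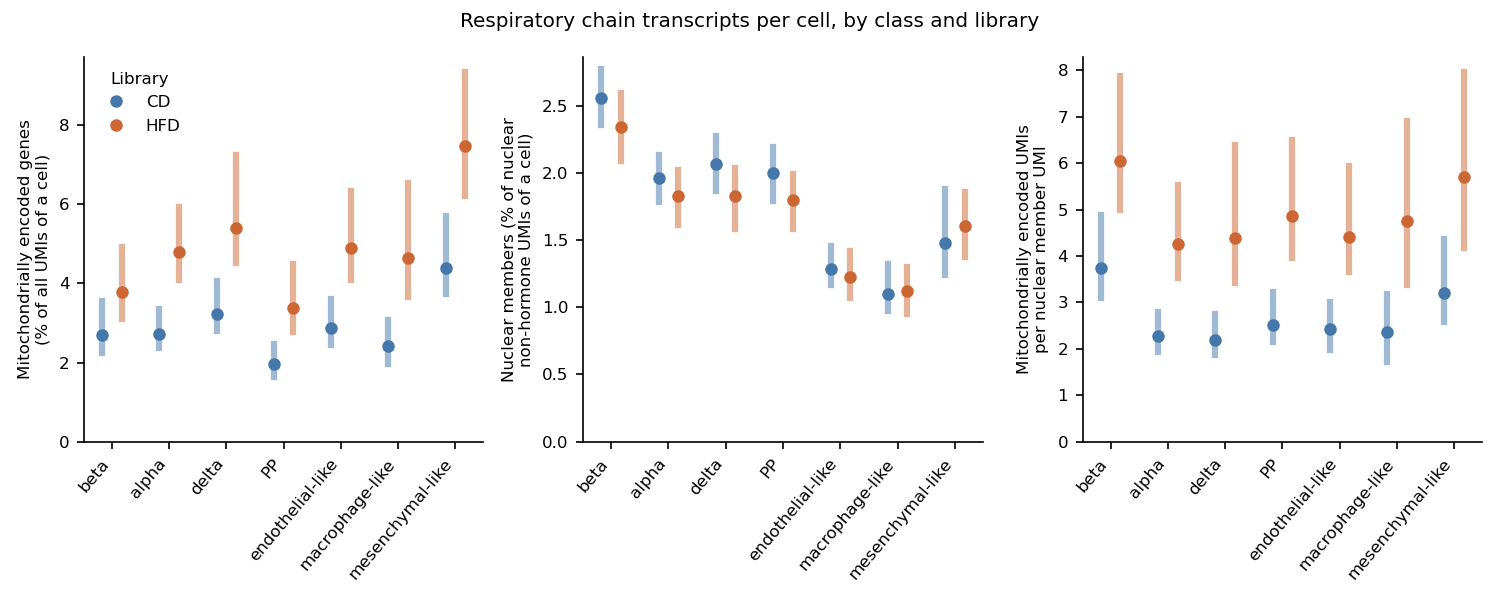
Median (point) and interquartile range over cells (bar) for 3 per-cell measures, by class and library: mitochondrially encoded UMIs as a percent of all UMIs, nuclear members as a percent of nuclear non-hormone UMIs, and the number of mitochondrially encoded UMIs per nuclear member UMI. The HFD medians of the mitochondrial share and of the ratio lie above the CD medians in all 7 classes, and the nuclear share of beta cells moves from 2.56% to 2.34%.

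Values that move with the mitochondrial result stand beside it. Near-empty barcodes of 10 to 100 UMIs, which hold free RNA, had 8.80% mitochondrial UMIs in CD and 19.3% in HFD, whereas nuclear members took 2.41% and 2.21% of their nuclear non-hormone UMIs. The share of free RNA in each class was estimated from hormones foreign to it, and at the lowest such estimate it corresponded to 41.6% of the mitochondrially encoded UMIs of CD beta cells and 62.7% of those of HFD beta cells. With that amount subtracted, a choice made after seeing the data, the median log2 ratio of the 13 genes in beta cells dropped from 0.58 to 0.055 and 4 of the 13 changed sign. In alpha cells the median was then 0.57, in delta cells 0.40, in PP cells 0.53, and outside the endocrine classes it ranged from 0.35 to 0.74. Depth differed too, since the median HFD alpha cell had 7668 UMIs and the median CD alpha cell 9441. Within cells of 20000 to 40000 UMIs the beta medians were still 2.62% in CD and 3.74% in HFD, and within alpha cells of 5000 to 10000 UMIs they were 2.79% and 4.77%. Among beta cells with fewer UMIs the order was the other way, with 11.7% in 592 CD cells and 6.88% in 213 HFD cells at 1500 to 5000 UMIs, and with 9.19% in 156 CD cells and 4.70% in 359 HFD cells at 5000 to 10000 UMIs.

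Levels of single genes are given as counts per 1000000 nuclear non-hormone UMIs (CPM), summed over the cells of a class. The 13 mitochondrially encoded genes did not differ equally between the libraries (plot of their ratios by class). In beta cells 10 of the 13 were at least 25% higher in HFD, in alpha cells 12, in delta cells 10 and in PP cells 12. Among all nuclear genes with enough counts, 13.4% were that much higher in beta cells, 11.6% in alpha, 17.1% in delta and 9.28% in PP cells. The median log2 ratio of the 13 was 0.58 in beta, 0.68 in alpha, 0.62 in delta, 0.83 in PP, 0.62 in endothelial-like, 1.11 in macrophage-like and 0.72 in mesenchymal-like cells.

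The genes mt-Nd3, mt-Co3 and mt-Nd2 had the highest median ratios over the 7 classes. mt-Nd3, a small subunit of the membrane arm of complex I, stood at 892 CPM in CD beta cells and 1924 in HFD, and at 555 and 1258 in alpha cells. Its log2 ratio was 1.11 (1.09 to 1.12) in beta cells and ranged over the 7 classes up to 1.60 in macrophage-like cells. mt-Co3, a core subunit of cytochrome oxidase, went from 16200.5 to 28258 in beta cells, from 8642 to 18516 in alpha cells and from 9114 to 20694 in PP cells. mt-Nd2, another membrane-arm subunit, stood at 2868 and 5375 in beta cells, a log2 ratio of 0.91, and at 1.16 in PP cells. mt-Nd1, at the junction of the arms of complex I, was close to these at 0.97 in beta and 0.90 in PP cells.

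The catalytic core of cytochrome oxidase did not move as a block. mt-Co1, which holds the oxygen-binding site, was at 20665 CPM in CD beta cells against 28157 in those of HFD, a log2 ratio of 0.45 (0.44 to 0.45). mt-Co2, which receives electrons from cytochrome c, had 0.46 (0.45 to 0.46) in beta and 0.83 (0.81 to 0.86) in PP cells. The interval of mt-Co3 in beta cells, 0.80 to 0.81, lay apart from both. mt-Cytb, the mitochondrially encoded subunit of complex III, stood at 11668 and 18734 in beta cells, a log2 ratio of 0.68, and at 0.76 in alpha cells. For complex V, mt-Atp6, part of the proton channel, had a log2 ratio of 0.58 in beta and 0.79 in alpha cells, and mt-Atp8, its small partner, 0.46 and 0.57.

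The complex I genes mt-Nd4l, mt-Nd5 and mt-Nd6 stood nearest to or below a ratio of 1 in beta cells. mt-Nd4l was at 1988 CPM in CD beta cells against 2126 in those of HFD, a log2 ratio of 0.10, at 0.0034 (-0.070 to 0.077) in delta cells and at -0.21 in mesenchymal-like cells. Its neighbour mt-Nd4, carried on the same transcript, had 0.64 in beta and 0.59 in delta cells. Reading frames of that pair overlap, as do those of mt-Atp8 and mt-Atp6, so how their reads were divided is uncertain. mt-Nd5 had 0.21 in beta, 0.37 in alpha, 0.21 in delta and 0.37 in PP cells. mt-Nd6, the only protein gene of the light strand, was at 75.2 and 71.2 in beta cells, a log2 ratio of -0.079 (-0.14 to -0.015), but at 0.32 in alpha and 0.49 in PP cells. It was also the scarcest of the 13 in beta cells.

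**Figure D2:**
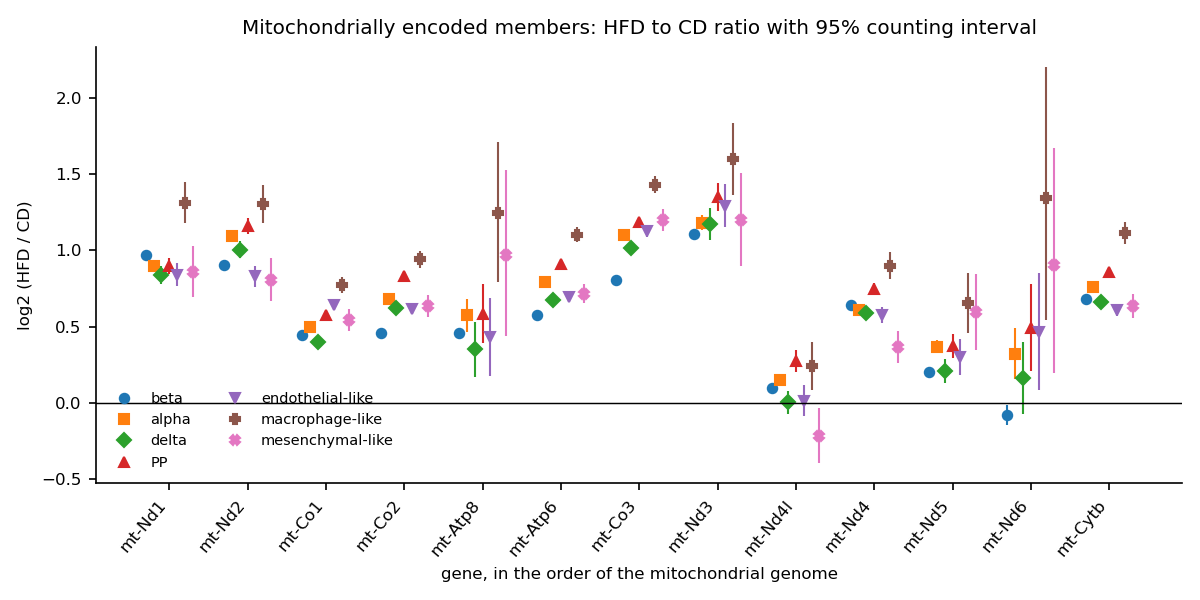
Log2 ratio of HFD to CD (y axis) for the 13 mitochondrially encoded protein genes in genome order (x axis) in 7 classes of cells, with 95% counting intervals as bars. mt-Nd3 lies between 1.11 and 1.60, whereas mt-Nd4l lies between -0.21 and 0.28.

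Nuclear members leaned the other way in endocrine cells, but by less. In beta cells 32 of 47 were lower in HFD (51.1% of all 4069 nuclear genes tested were), with a median log2 ratio of -0.14 against -0.0093 for all genes. In alpha cells 39 were lower (59.7% of all genes), with medians of -0.16 and -0.073. In delta cells it was 42 (53.1% of all genes), with -0.20 and -0.027, and in PP cells 43 (59.5%), with -0.16 and -0.076. No nuclear member was at least 25% higher in beta cells (13.4% of all genes were), in alpha cells (11.6%) or in PP cells (9.28%), and 1 was in delta cells (17.1%). At least 20% lower, the same factor, were 4 members in beta cells against 11.0% of all genes, 4 in alpha cells against 15.1%, 7 in delta cells against 14.3% and 9 in PP cells against 16.1%. As shares of the 47 members these are 8.51% in beta and alpha, 14.9% in delta and 19.1% in PP cells, below the share of all genes in beta and alpha cells and close to it in delta and PP cells. The 4 in beta cells were Ndufv2, Ndufb8, Ndufb4 and Ndufb9, and the 4 in alpha cells Ndufa4, Cycs, Sdhb and Ndufv2. The medians outside the endocrine classes were -0.066 in endothelial-like, 0.069 in macrophage-like and 0.093 in mesenchymal-like cells. Those of all genes were -0.029, 0.025 and 0.103 in the same order, so the mesenchymal-like members lay slightly below all genes. In that class only 38 of the 47 members had enough UMIs in the higher library to enter. The effect of this filter on the median was not tested.

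Transcript length moved with this shift. The median transcript of the nuclear members spans 572 bases against 1125 for the other genes in beta cells, and over those genes the log2 ratio followed length, from -0.096 at 500 bases to 0.12 at 3000. With the length trend removed, an alternative added after seeing the data, the nuclear median was -0.061 in beta, -0.054 in alpha, -0.0997 in delta and -0.068 in PP cells, and 30 of 47 members were below a ratio of 1 in beta and in alpha cells, 36 in delta and 33 in PP cells. Per gene, several of these short genes have processed copies elsewhere in the genome, and how the authors' counting divided such reads was not tested.

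Complex I, the NADH dehydrogenase, held the members that were lowest in HFD beta cells. Of its 14 nuclear members 11 were lower in beta cells, 12 in alpha, 13 in delta and 14 in PP cells, with median log2 ratios of -0.22, -0.23, -0.19 and -0.20. Of all genes 51.1%, 59.7%, 53.1% and 59.5% were lower, with medians of -0.0093, -0.073, -0.027 and -0.076. Ndufv2, an iron-sulfur subunit of the NADH-oxidizing module, stood at 226 CPM in CD beta cells against 162 in those of HFD, a log2 ratio of -0.48 (-0.52 to -0.44). It was at 154 and 123 in alpha cells and at 188 and 132 in delta cells. Ndufb8, an accessory subunit of the membrane arm, stood at 569.6 and 415 in beta cells, -0.46, and at 372 and 268 in delta cells, -0.47.

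Other accessory subunits of the same arm followed. Ndufb9 stood at 715 and 555 in beta cells and at 395 and 305 in delta cells, both a log2 ratio of -0.37. Ndufb4 stood at 333 and 256 in beta cells, -0.38. Ndufa5, in the peripheral arm, had -0.30 in beta cells and -0.30 in alpha cells. Ndufb8 was below a ratio of 1 in all 7 classes, though its interval in endothelial-like, macrophage-like and mesenchymal-like cells included 1.

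Complex I also held members that were higher in HFD beta cells. Ndufa1, an X-linked accessory subunit needed for assembly, stood at 373 CPM in CD beta cells and 434 in HFD, 0.22 (0.19 to 0.25). In the other endocrine classes it was lower in HFD, at 315 and 259 in alpha cells, 312 and 260.1 in delta cells, and 358 and 244 in PP cells, the last a log2 ratio of -0.56 (-0.71 to -0.40). Ndufs6, a zinc-binding accessory subunit, stood at 323 and 368 in beta cells, 0.19, and at 0.14 in delta cells, 0.021 in alpha cells and -0.26 in PP cells. For both genes beta and PP intervals lay on opposite sides of a ratio of 1.

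**Figure D3:**
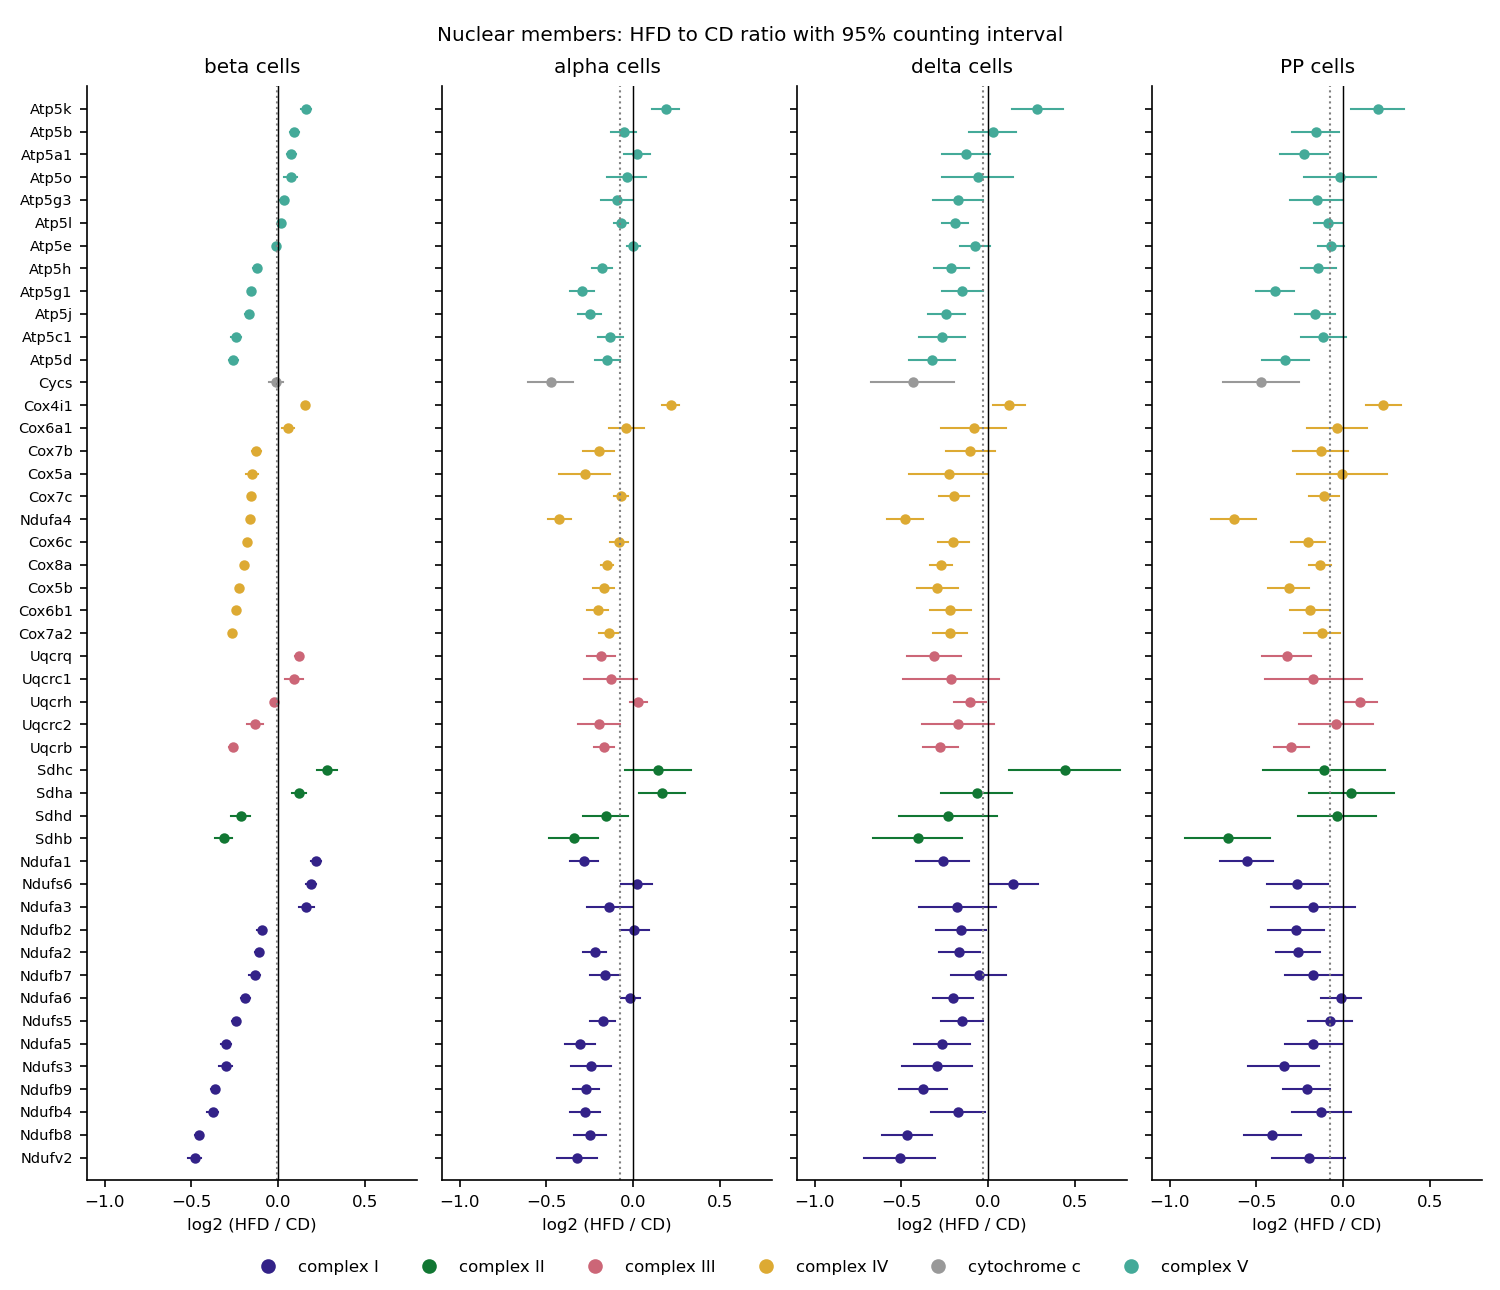
Log2 ratio of HFD to CD (x axis) with its 95% counting interval for each of the 47 measured nuclear members (y axis, grouped and coloured by complex) in beta, alpha, delta and PP cells, with a dotted line at the median of all nuclear genes. Most points lie left of 0, and Atp5k and Cox4i1 lie right of it in each panel.

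Complex II, succinate dehydrogenase, has nuclear subunits only, and its members split. Sdhc, a membrane anchor, was the highest nuclear member in beta cells, at 82.6 CPM in CD against 100.3 in HFD, a log2 ratio of 0.28 (0.22 to 0.34). It was also higher in delta cells, at 54.6 and 74.1, but not in PP cells, at 59.0 and 54.6. Sdha, the flavoprotein that oxidizes succinate, had 0.12 in beta and 0.17 in alpha cells. Its iron-sulfur partner Sdhb was lower in HFD in all 4 endocrine classes, going from 146 to 117 in beta cells, from 108 to 85.3 in alpha cells, from 116 to 87.3 in delta cells and from 146 to 91.8 in PP cells. The PP log2 ratio of Sdhb, -0.67 (-0.91 to -0.42), was the lowest of any nuclear member in an endocrine class. The split between the catalytic subunits Sdha and Sdhb held in beta and alpha cells with intervals on opposite sides of a ratio of 1.

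In complex III, Uqcrb, a subunit beside the ubiquinone site and the member with most UMIs of this complex, stood at 940.4 and 784 in beta cells. Its point values were below a ratio of 1 in all 7 classes, from -0.31 to -0.064. The last was in macrophage-like cells, where even the summed UMIs of all 5 members had an interval that included 1 (-0.20 to 0.044). Uqcrh, the hinge protein that docks cytochrome c1, stayed close to 1, with -0.024 in beta, 0.030 in alpha and 0.10 (0.0037 to 0.20) in PP cells. Uqcrq, a small membrane subunit, was higher in HFD beta cells, 0.12 (0.10 to 0.14), and lower in alpha, delta and PP cells, at -0.19, -0.31 and -0.33.

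In complex IV, 9 of 11 nuclear members were lower in HFD beta cells and 10 in each of alpha, delta and PP cells. Of all genes 51.1% were lower in beta, 59.7% in alpha, 53.1% in delta and 59.5% in PP cells. Cox8a, a small subunit that is the nuclear member with most UMIs here, stood at 2134 and 1864 in beta cells, a log2 ratio of -0.20, and at 1803 and 1494 in delta cells, -0.27. Ndufa4 was at -0.16 in beta cells but lower in the other endocrine classes, going from 506 to 377 in alpha cells (-0.43), from 712 to 511 in delta cells (-0.48) and from 519 to 335 in PP cells (-0.63). The beta interval of Ndufa4, -0.18 to -0.14, did not overlap those 3. Cox4i1, the ubiquitous form of the regulatory subunit 4, had a ratio above 1 in all 7 classes, though its interval in endothelial-like cells included 1. It stood at 759 and 844 in beta cells, 677 and 787 in alpha cells, 717 and 779 in delta cells, and 614 and 721 in PP cells, with log2 ratios of 0.15, 0.22, 0.12 and 0.23.

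Cycs, the cytochrome c that shuttles electrons from complex III to complex IV and also acts in apoptosis, was level in beta cells and lower in HFD in the other endocrine classes, a difference between classes that was not tested. It stood at 189.5 and 188 in beta cells, a log2 ratio of -0.014 (-0.054 to 0.025). It went from 132 to 94.7 in alpha cells, from 135 to 99.6 in delta cells and from 171 to 123 in PP cells, log2 ratios of -0.48, -0.43 and -0.47. In endothelial-like cells it was 0.30 (0.050 to 0.56).

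In complex V, the ATP synthase, 6 of 12 nuclear members were higher and 6 lower in HFD beta cells. In alpha and in delta cells 10 of 12 were lower, and 11 in PP cells. Of all genes 51.1%, 59.7%, 53.1% and 59.5% were lower in beta, alpha, delta and PP cells. Median log2 ratios of complex V were -0.00026, -0.082, -0.16 and -0.15 in that order, against -0.0093, -0.073, -0.027 and -0.076 for all genes. The beta and alpha medians thus lay near those of all genes. With the length trend removed the complex V medians were 0.095, 0.035, -0.087 and -0.042. Atp5k, the small membrane subunit e that helps ATP synthase form dimers, had a ratio above 1 in all 7 classes, from 0.16 to 0.42, with an interval that included 1 in mesenchymal-like cells. It stood at 359.9 and 402 in beta cells, 281 and 319.8 in alpha cells, 273 and 332 in delta cells, and 275 and 316 in PP cells. Atp5l, subunit g and the most counted of this complex, was at 1666 and 1682 in beta cells. Atp5g1, which encodes the same mature ring subunit c as Atp5g3, was lower in alpha cells, 442 and 360.4 (-0.29), and in PP cells, 625 and 476 (-0.39). Atp5d, the delta subunit of the central stalk, had point values below a ratio of 1 in all 7 classes, with -0.33 in delta and -0.33 in PP cells.

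Cell classes were then compared with beta cells across both libraries, by edgeR's quasi-likelihood test on 14 sums of UMIs with library as a term and Benjamini-Hochberg adjustment over 13441 genes. The 2 libraries are the only repeats of a class, so each p-value rests on differences between classes that both share. Nuclear members were mostly lower outside beta cells. In alpha cells 34 of 47 were lower and 1 higher, against 42.2% lower and 10.4% higher of all genes. In delta cells 24 were lower and 0 higher in edgeR, against 19.1% and 16.6%, and in PP cells 25 were lower and 1 higher, against 23.7% and 12.6%. In endothelial-like cells 41 were lower and 1 higher (46.2% and 24.2% of all genes), in macrophage-like cells 43 and 0 (57.0% and 15.1%), and in mesenchymal-like cells 32 and 1 (27.3% and 17.5%). At an unadjusted p under 0.05 edgeR also had 0 higher in delta and in macrophage-like cells. At an adjusted p under 0.05 DESeq2's own Wald test, which uses its own size factors, had 2 and 10. With those size factors edgeR had 1 and 8 at an adjusted p under 0.05.

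These splits depend on how the classes are scaled, and the median of all genes was itself below that of beta cells, by -0.33 in alpha, -0.013 in delta, -0.17 in PP, -0.47 in endothelial-like, -1.17 in macrophage-like and -0.44 in mesenchymal-like cells on the log2 scale. The median of the nuclear members was -0.44, -0.34, -0.35, -0.91, -1.08 and -0.53 in the same order, so it lay under the median of all genes in 5 of the 6 contrasts and above it in macrophage-like cells. With TMM scaling in edgeR the nuclear members lower and higher were 13 and 5 in alpha, 26 and 0 in delta, 19 and 1 in PP, 33 and 1 in endothelial-like, 21 and 4 in macrophage-like and 25 and 1 in mesenchymal-like cells. With DESeq2 size factors in edgeR they were 10 and 5, 13 and 1, 13 and 2, 29 and 1, 16 and 8, and 17 and 1.

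Cox5a, a small nuclear subunit of complex IV that faces the matrix, had the largest difference from beta cells in alpha and PP cells. It stood at 283 CPM in CD beta cells and 255 in HFD, but at 97.2 and 80.1 in alpha cells, 138 and 118 in delta cells, and 102 and 102 in PP cells. Its log2 difference from beta cells was -1.60 in alpha (edgeR adjusted p = 3.11e-08), -1.07 in delta (edgeR adjusted p = 6.48e-06) and -1.40 in PP cells (edgeR adjusted p = 4.26e-07). Endothelial-like cells were above beta cells, at 337 and 330.3, by 0.31 (edgeR adjusted p = 0.0323, or 0.0641 with no filter on low counts). No library of an alpha, delta or PP class reached the lower beta value.

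The members Uqcrq, Ndufb9, Ndufb8 and Ndufa4 were also low in all 3 endocrine contrasts. On the log2 scale Uqcrq was -1.11 in alpha, -1.18 in delta and -0.94 in PP cells relative to beta cells. Ndufb9, an accessory complex I subunit, was -0.95, -0.86 and -0.74, with 358 and 297 CPM in alpha cells against 715 and 555 in beta cells. Ndufb8 was -1.14 in alpha, -0.62 in delta and -0.94 in PP cells. Ndufa4 was -1.05 in alpha and -1.11 in PP cells, and -0.59 in delta cells (edgeR adjusted p = 0.0192, against 0.0875 in DESeq2). In delta cells Cycs (-0.69) and Atp5l (-0.62) completed the 5 lowest.

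Few nuclear members stood above beta cells. Ndufa6, a complex I accessory subunit, was at 615 and 608 CPM in alpha cells against 451 and 395 in beta cells, a log2 difference of 0.54 (edgeR adjusted p = 0.00176). Sdhd, the second membrane anchor of complex II, was at 138 and 135 in PP cells against 107 and 92.3 in beta cells, 0.45 (edgeR adjusted p = 0.00288). Atp5b, the catalytic beta subunit of ATP synthase, was at 532 and 556 in mesenchymal-like cells against 386 and 411, 0.45 (edgeR adjusted p = 0.00986). In each of these the 2 libraries of the class lay above the 2 of beta cells, and the call was kept under TMM and DESeq2 scaling.

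Outside the endocrine classes the lowest members, named below, came mostly from complexes I and V, which hold 14 and 12 of the 47 nuclear members. Complex IV entered only through Ndufa4 and complex II only through Sdhd. Whether complexes I and V were named more often than their size alone would give was not tested. In endothelial-like cells Atp5l stood at 479.8 and 415 CPM, a log2 difference of -1.91 from beta cells, followed by Atp5g1 at -1.79, Ndufb2 at -1.75, Atp5e at -1.74 and Ndufa1 at -1.71. In macrophage-like cells Ndufb2 was at 82.2 and 87.2, -2.30, followed by Ndufs5 at -2.05, Ndufs3 at -1.83, Ndufa4 at -1.82 and Ndufs6 at -1.77. All 14 nuclear members of complex I were lower in endothelial-like cells and 13 in macrophage-like cells, against 46.2% and 57.0% of all genes. Of complex V 10 of 12 and 12 of 12 were lower in the same order, and of complex II 3 of 4 and 4 of 4. With DESeq2 size factors in edgeR 29 and 16 of the 47 nuclear members were lower. In mesenchymal-like cells Ndufa4 was at 243 and 113 against 957 and 856 in beta cells, -2.43 (edgeR adjusted p = 2.12e-07), the largest difference of any nuclear member in any of the 6 contrasts. Atp5l, Atp5g1, Atp5e and Sdhd followed in these cells at -1.58, -1.35, -1.21 and -1.19.

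Mitochondrially encoded members were lower than in beta cells in nearly every contrast, 12 of 13 in alpha, delta, PP and endothelial-like cells, 13 in macrophage-like and 10 in mesenchymal-like cells. Of all genes 42.2% were lower in alpha, 19.1% in delta, 23.7% in PP, 46.2% in endothelial-like, 57.0% in macrophage-like and 27.3% in mesenchymal-like cells. With DESeq2 size factors 8 were lower in alpha, 12 in delta, PP and endothelial-like, 11 in macrophage-like and 8 in mesenchymal-like cells. mt-Nd6 was the exception, at 109.9 and 123 CPM in delta cells against 75.2 and 71.2 in beta cells, a log2 difference of 0.66 (edgeR adjusted p = 0.00312), and at 90.7 and 169.6 in mesenchymal-like cells, 0.86 (edgeR adjusted p = 0.00849). Median differences were -0.78 in alpha, -0.84 in delta, -0.66 in PP, -1.42 in endothelial-like, -1.49 in macrophage-like and -0.72 in mesenchymal-like cells, each below that of the nuclear members of the same contrast. These levels are relative to nuclear non-hormone UMIs, while hormones fill most of a beta cell's UMIs, and as a share of all UMIs the beta medians of both libraries lay below those of alpha, delta, endothelial-like and mesenchymal-like cells, so that the direction turned in 4 of the 6 contrasts. On that scale the beta median lay above that of PP cells in both libraries, and above that of macrophage-like cells in CD but below it in HFD. Free RNA at its lowest estimate corresponded to 41.6% (CD) and 62.7% (HFD) of the mitochondrially encoded UMIs of beta cells. In the other 6 classes it ranged from 14.6% to 21.3% in CD and from 24.3% to 39.8% in HFD. No contrast between classes was made with free RNA subtracted, so its part in these differences was not tested.

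**Figure D4:**
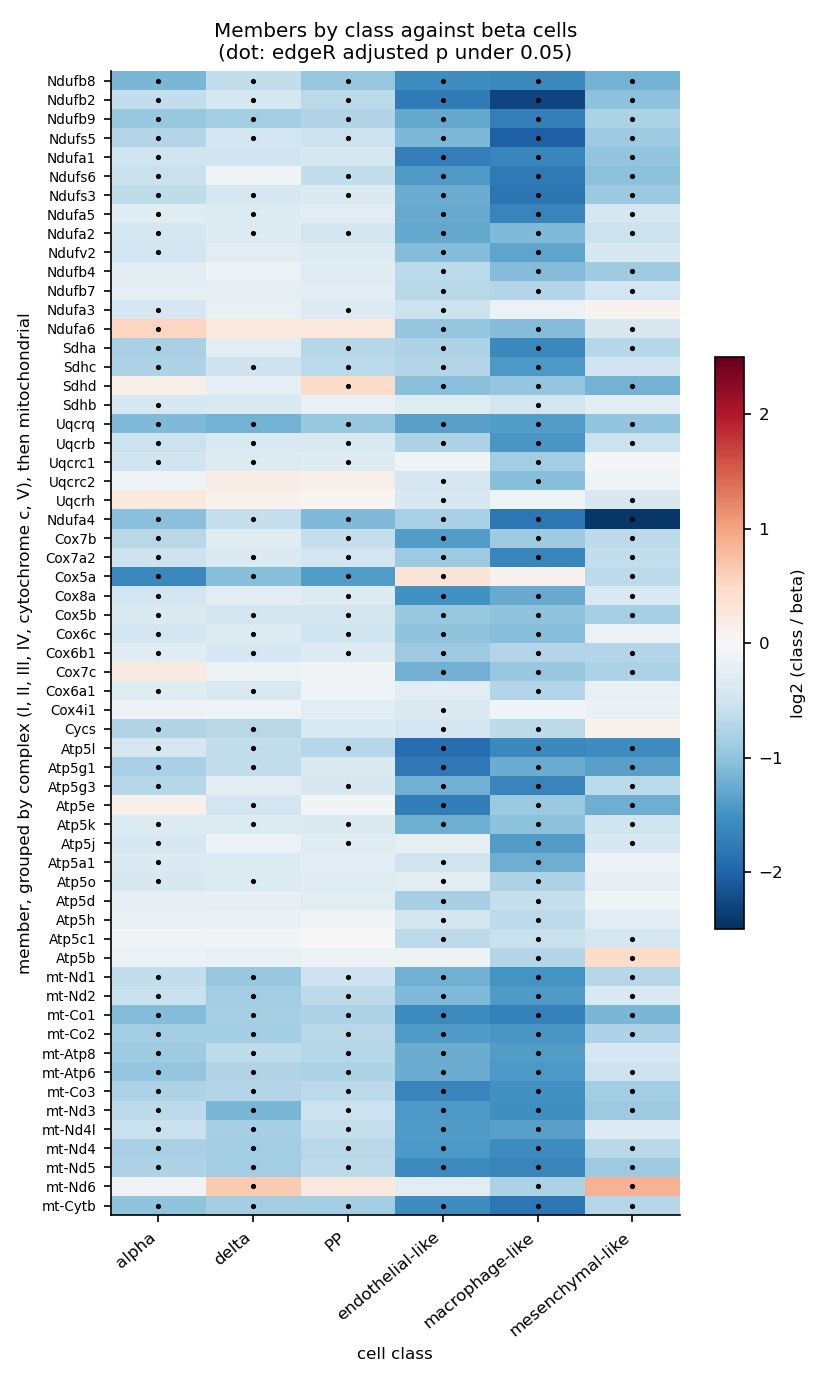
Log2 difference of each of 6 classes (x axis) from beta cells for the 47 nuclear and 13 mitochondrially encoded members (y axis), in colour, with a dot where edgeR's adjusted p was under 0.05. Blue (lower than in beta cells) prevails, while Ndufa6 in alpha cells, Cox5a in endothelial-like cells and mt-Nd6 in delta and mesenchymal-like cells are red.

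Isoforms with a restricted tissue range marked classes, and some differed between the libraries. Cox6a2, the heart and muscle form of cytochrome oxidase subunit 6a, stood at 36.5 CPM in CD beta cells (2085 UMIs) and 136 in HFD (7172 UMIs), with a log2 ratio of 1.90 (1.83 to 1.97). Its ubiquitous counterpart Cox6a1 stood at 235 and 244. Cox6a2 was at 1.54 and 3.80 CPM in alpha cells, -5.02 from beta cells (edgeR adjusted p = 2.65e-11). The part of free RNA in such low counts was not tested. Macrophage-like cells held 3 Cox6a2 UMIs in CD and 26 in HFD. Cox7a1, the heart and muscle form of subunit 7a, was lower in HFD beta cells, at 9.97 and 5.27 CPM (-0.92, interval -1.13 to -0.71).

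Mesenchymal-like cells carried 2 other forms. Cox4i2, the alternative subunit 4, stood at 796 and 1030.2 CPM there, close to Cox4i1 in the same cells at 577 and 848, against 0.49 and 0.78 in beta cells (edgeR adjusted p = 6.07e-13). Ndufa4l2, a paralog of Ndufa4 known for its induction by hypoxia, stood at 1974 and 2478 against 2.17 and 3.02 in beta cells (edgeR adjusted p = 3.14e-14). Endothelial-like cells had 18.1 and 12.4 of Cox4i2 and 32.7 and 26.4 of Ndufa4l2. Cox8b, a heart and muscle form, had at most 2 UMIs in any class and library.

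**Figure D5:**
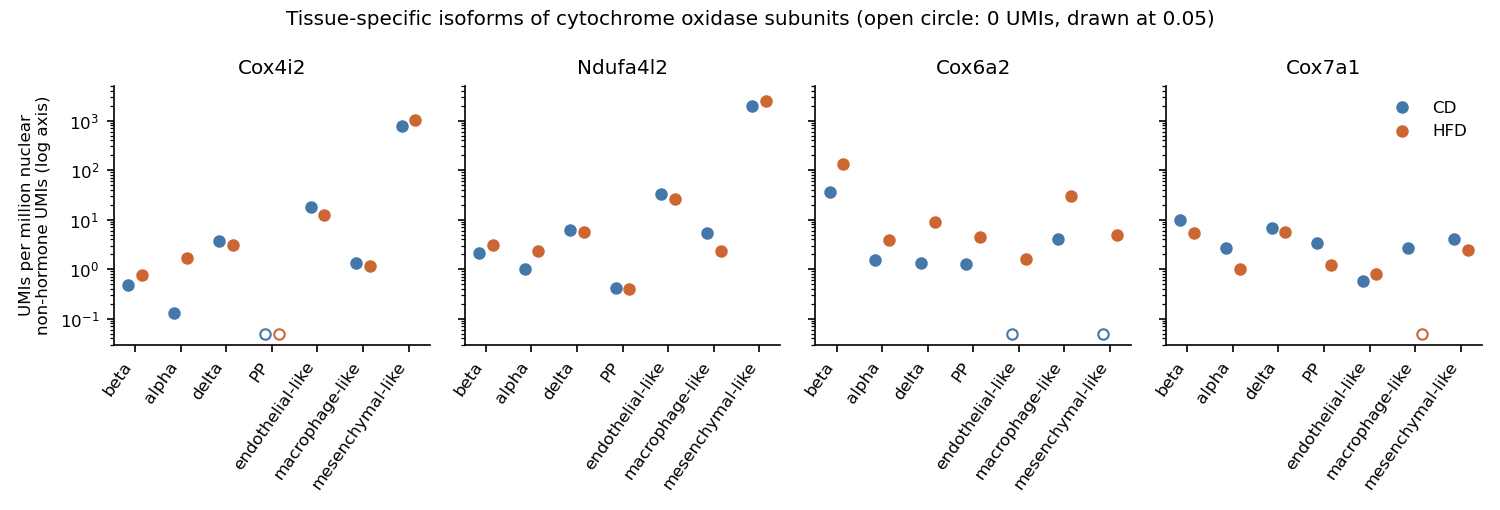
Level in CPM (log y axis) of 4 isoform genes in 7 classes, CD and HFD side by side, with an open circle where the sum held 0 UMIs. Cox4i2 and Ndufa4l2 peak in mesenchymal-like cells, and Cox6a2 is highest in beta cells, at 36.5 in CD and 136 in HFD.

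Related lists were described in the same way, without a test, and their counts are to be read beside the 51.1% of all genes in beta cells and 59.7% in alpha cells that were lower in HFD. The median of all genes was -0.0093 in beta and -0.073 in alpha cells. Of 32 other structural subunits 29 were lower in HFD beta cells (median -0.16) and 26 in alpha cells (-0.16), close to the members' own medians. With the length trend removed their medians were -0.074 and -0.044, beside -0.061 and -0.054 for the members. Ndufb10, an accessory complex I subunit, was at -0.36 in beta cells. In alpha cells Cyc1, the heme subunit of complex III, was at -0.52 and Ndufab1 at -0.35.

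Assembly factors were lower in 35 of 44 cases in beta cells (median -0.17) and in 34 of 39 measured in alpha cells (-0.16). Sdhaf1, which matures the iron-sulfur subunit Sdhb, was at -0.47 and Cox17, a copper chaperone for complex IV, at -0.43 in beta cells. Cox16 was at -0.50 and Cox18, which inserts mt-Co2 into the membrane, at -0.66 in alpha cells. Mitochondrial ribosomal proteins, which translate the 13 mitochondrially encoded members, were lower in 68 of 78 genes in beta cells (median -0.20) and in 72 of 77 in alpha cells (-0.25). Cytosolic ribosomal proteins had medians of -0.059 and 0.027. With the length trend removed the beta and alpha medians of assembly factors were -0.13 and -0.072. Those of mitochondrial ribosomal proteins were then -0.15 and -0.18, and those of cytosolic ones 0.026 and 0.14.

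Genes that express the mitochondrial genome were not higher as a list. Of 20, 14 were lower in HFD beta cells (median -0.10) and 15 of 18 measured in alpha cells (-0.21). With the length trend removed both medians were -0.12. Mterf2 was at -0.62 and Fastkd2 at -0.39 in beta cells, and Ssbp1, which coats single-stranded mitochondrial DNA, at -0.47 in alpha cells beside Mterf3 at -0.52. Of 8 regulators measured in beta cells 2 were lower, and of 6 in alpha cells 3. Ppargc1a, which encodes PGC-1 alpha, was higher in HFD in both large classes, at 5.32 and 22.5 CPM in beta cells (304 and 1189 UMIs, log2 ratio 2.08, interval 1.90 to 2.27) and at 6.94 and 15.3 in alpha cells (54 and 149 UMIs, 1.14). Esrrg, an estrogen-related receptor, was at 0.80 in beta cells, and Pprc1 at 0.70 in alpha cells. In the list of the citrate cycle and pyruvate entry, 9 of 18 genes were lower in beta cells, about the share of all genes, with the pyruvate carrier genes Mpc1 and Mpc2 at -0.45 and -0.35, and 13 of 18 in alpha cells, with Mdh2 at -0.29 and Fh1 at -0.37. Of 12 shuttles and carriers, 8 were lower in beta cells, where Slc25a12 was at 0.41 and Slc25a4 at -0.26, and 7 in alpha cells, about the share of all genes, where Slc25a11 was at -0.41 and Slc25a5 at -0.29.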

How the data were processed

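The authors deposited raw UMI counts per gene and barcode, 1 matrix per library, with no normalization and every possible barcode listed. The submitters' processing notes name Cell Ranger 6.0.1 and mm10, while the matrices name software version 3.0.2, per the file headers. Which annotation release they used is not stated there. Members and lists were chosen with earlier results of these data known.

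Counts were summed per class and library and divided by the nuclear-encoded UMIs (per 1000000, CPM) outside the hormone genes Ins1, Ins2, Iapp, Gcg, Sst, Ppy, Pyy and Ghrl. Because the kit counts transcript ends, no division by length was made. Ratios of HFD to CD carry exact conditional binomial 95% intervals (scipy 1.17.1). A gene entered medians with at least 50 UMIs in the higher library, and the genes of the background also with at least 50 CPM. Classes were compared in edgeR 4.0.16 (R 4.3.3) with unit normalization factors, tested on simulated data. DESeq2 1.42.0 was an alternative, and so were other limits on cells, denominators, scrublet doublet removal (scanpy 1.11.5) and subtraction of free RNA. In the main analysis doublets were treated only by setting apart cells past several hormone limits.

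Named genes were the 5 highest and 5 lowest nuclear members per endocrine class, ranked by whichever end of the interval lay closer to 1, the most counted member of each complex, the 5 largest called differences in each direction per class against beta cells, all 13 mitochondrially encoded genes, fixed isoforms, and 2 per further list in beta and alpha cells. Members past the 25% limit or with values of interest after these were seen (Sdhb in alpha and delta cells, Uqcrq, Atp5d, Cox6a1) were added. Cells named only by ductal, acinar, lymphocyte, Schwann or erythroid markers were not compared. Transcript lengths came from GENCODE release M21. One gene that this rule names is not reported here.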

Additional observations from a re-analysis of the deposited data

Results flagged for a closer look

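The nuclear members Ndufa1, Ndufs6 and Uqcrq and 1 mitochondrially encoded gene had ratios on opposite sides of 1 in beta and PP cells, with counting intervals that exclude 1. The log2 ratio of HFD to CD was 0.22 in beta and -0.56 in PP cells for Ndufa1, 0.19 and -0.26 for Ndufs6, and 0.12 and -0.33 for Uqcrq. For mt-Nd6 it was -0.079 in beta and 0.49 in PP cells. With 1 library per diet the difference between the classes was not tested.

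Barcodes outside the analysis carried mitochondrially encoded transcripts too. Of barcodes with at least 1500 UMIs and 500 genes, 8.81% of HFD and 4.05% of CD were left out for more than 15% mitochondrial UMIs. By class the share over the limit was largest in HFD mesenchymal-like cells, 14.4%, and HFD delta cells, 12.3%, against 4.46% and 1.72% in CD. Near-empty barcodes held 19.3% mitochondrial UMIs in HFD and 8.80% in CD.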

How the results depend on the processing

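With 1 library per diet no replicate could be left out of a diet ratio. No paired analysis was possible, since each diet has 1 library and the labels give no pairing. For 40 pairs of a nuclear gene and a class, 600 values under an alternative were computed and 1 turned round, Atp5g1 in alpha cells, at 0.040 with free RNA subtracted. Most of these pairs were named because their intervals lay far from 1. Over all measured nuclear members, 2 of 47 in beta, 11 of 47 in alpha, 0 of 47 in delta and 11 of 46 in PP cells turned round with free RNA subtracted. With the length trend removed it was 9 of 47 in alpha and 10 of 47 in PP cells. A limit of 5% mitochondrial UMIs turned 18 of 37 in mesenchymal-like cells. Of mitochondrially encoded genes with free RNA subtracted, 5 of 11 in beta, 3 of 13 in delta and 9 of 13 in endothelial-like cells turned round. It was 1 of 13 in mesenchymal-like, 0 of 6 in alpha and 0 of 4 in PP cells. At its lowest estimate it was 4 of 13 in beta and 1 of 13 in delta and in endothelial-like cells. Under each other alternative at most 1 of the 13 did so in a class. Class medians turned round in 0 of 90 values, the libraries taken singly included.

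The median log2 ratio of the nuclear members moved to -0.22 in beta and -0.017 in macrophage-like cells with all UMIs as denominator, to -0.18 in beta cells with TMM factors, and to -0.025 in alpha cells with free RNA subtracted. Alternatives chosen after seeing the data were the length trend (beta -0.061, delta -0.0997), cells of at most 5% mitochondrial UMIs (mesenchymal-like -0.11), cells of 5000 to 20000 UMIs, the lowest free RNA estimate, and leaving out acinar genes or cells with foreign markers. The macrophage-like and mesenchymal-like medians here turned round.

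For the 13 mitochondrially encoded genes the medians, in the order beta, alpha, delta, PP, endothelial-like, macrophage-like and mesenchymal-like, were 0.49, 0.71, 0.57, 0.78, 0.56, 1.03 and 0.63 with all UMIs as denominator. They were -0.045, 1.08, 0.25, 0.42, -0.086, 0.61 and 0.42 with free RNA subtracted, where beta and endothelial-like cells turned round, and 0.055, 0.57, 0.40, 0.53, 0.35, 0.74 and 0.50 at its lowest estimate. The first of these estimates is unsound where it exceeds what was counted, at 129% of the mitochondrially encoded UMIs in CD alpha cells. With at most 5% mitochondrial UMIs they were 0.47, 0.50, 0.42, 0.62, 0.41, 0.70 and 0.20. Cells of 5000 to 20000 UMIs gave 0.49, 0.70, 0.59, 0.78, 0.51 and 1.30 in the first 6 classes. TMM factors gave 0.53, 0.73, 0.56 and 0.87 in the endocrine classes and 0.78 in mesenchymal-like cells. Counting each cell alike gave 0.39, 0.58, 0.65, 0.79 and 0.72 in the first 5. A 25% limit gave 0.59 in beta, 0.73 in alpha, 0.82 in delta and in endothelial-like, and 0.85 in mesenchymal-like cells. At least 3000 UMIs gave 0.60 in beta, 0.69 in alpha, 0.55 in endothelial-like and 0.57 in mesenchymal-like cells, and doublet removal 0.58 in beta and 0.70 in alpha cells. The causes of these shifts were not tested.

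Counts of nuclear members that differed from beta cells moved with scaling. Lower were 13 in alpha and 21 in macrophage-like cells with TMM, and 10 in alpha, 13 in delta, 13 in PP, 16 in macrophage-like and 17 in mesenchymal-like cells with DESeq2 size factors. DESeq2's Wald test had 14 lower in alpha, 17 in macrophage-like and 18 in mesenchymal-like cells. Higher were 5 in alpha and 4 in macrophage-like cells with TMM, and 5 in alpha, 1 in delta, 2 in PP and 8 in macrophage-like cells with DESeq2 size factors. The Wald test had 6 higher in alpha, 2 in delta, 3 in PP, 2 in endothelial-like and 10 in macrophage-like cells. With the 4 endocrine classes only, 3 were higher in alpha, 1 in delta and 2 in PP cells. With no filter on low counts 0 were higher in endothelial-like cells.

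Depth limits single genes most in mesenchymal-like cells, where 38 of 47 nuclear members reached 50 UMIs.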
